A study of Danio rerio with 4 samples.

Results

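The genes described here are foxo1a, foxo1b, foxo3a and foxo3b, the zebrafish copies of FOXO1 and FOXO3, which were taken by symbol from a table of 16662 genes. All 4 had a row and passed the filter on low values, which kept the 12118 genes with a mean value of 10 or more. The libraries were made from hearts cut out by hand at 48 hours post fertilisation (hpf) and pooled, 2 from tie1 mutants (labelled tie1 KO) and 2 from siblings (labelled tie1 WT, although the series text also counts heterozygous fish among the siblings). All fish are labelled as carrying Tg(kdrl:eGFP), in which the promoter of an endothelial receptor gene drives a green fluorescent protein. The sources used here state neither the tie1 allele nor how many hearts went into a pool. The question put by the comparison is which heart genes differ in the tie1 mutant.

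FoxO proteins are forkhead transcription factors held in check by growth factor signalling. When receptors such as the insulin receptor or the angiopoietin receptor Tie2 switch on PI3K and AKT, AKT phosphorylates FoxO, which then leaves the nucleus and stops activating its targets. In mammalian endothelium Tie1 acts together with Tie2, and FOXO1 is the FoxO member best known for activating ANGPT2, the gene of a ligand of Tie2. In mice FoxO3 also protects maturing red blood cells from oxidative damage. This control acts largely on the protein, so transcript values describe how much FoxO RNA a pool held and not how much FoxO was nuclear.

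The libraries corresponded to an estimated 2400000 and 1770000 assigned reads in mutants 1 and 2, against 3240000 and 2470000 in siblings 1 and 2. Mitochondrially encoded genes took 46.2% and 39.8% of all values in mutants 1 and 2, against 34.8% and 32.1% in siblings 1 and 2. Heart muscle markers took 4.14% and 2.95% in the mutants, against 7.58% and 5.14% in the siblings. Of the listed markers, 20 heart muscle and 26 pan-endothelial symbols had a row. Every row of the table had a total of at least 4, so none could be at 0 in all libraries. The targeted gene tie1 had normalised values of 123 and 88 in the mutants, against 558 and 300 in the siblings. With limma, 0 of 12118 genes, or 0.0%, passed an adjusted p of 0.05, while 316 higher genes (2.61%) and 526 lower genes (4.34%) had an unadjusted p under 0.05.

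Both foxo3 copies had lower values in the mutant hearts, without overlap between the groups, but neither passed the threshold over all genes. The gene foxo3b (ENSDARG00000042904, minus strand of chromosome 20, 32286765 to 32332736 of GRCz11) had normalised values of 205 and 213 in mutants 1 and 2, against 361 and 294 in siblings 1 and 2. The mutant pools lay close together and both sibling pools lay well above them, with means of 209 ± 5.66 in mutants and 327.5 ± 47.4 in siblings (SD, n = 2 each). The ratio of these means was 0.638. On the log2(value + 1) scale foxo3b differed by −0.64 ± 0.21 (SE, mutant minus sibling), with a 95% interval of −1.12 to −0.16. The unadjusted p was 0.0149 and the adjusted p 0.586 in limma. Without the mean-variance trend the unadjusted p was 0.0531.

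The other copy, foxo3a (ENSDARG00000023058, plus strand of chromosome 17, 6793001 to 6810785), had 69 and 85 in mutants 1 and 2, against 148 and 103 in siblings 1 and 2. Both mutant values were again below both sibling values, with sibling 1 the highest by a wide margin. The means were 77 ± 11.3 in mutants and 125.5 ± 31.8 in siblings (SD, n = 2 each), a ratio of 0.613. The log2 difference was −0.68 ± 0.26 (SE), with a 95% interval of −1.28 to −0.08, an unadjusted p of 0.0303 and an adjusted p of 0.681 in limma. Without sibling 1 it came to −0.42, and without the mean-variance trend the unadjusted p was 0.0674.

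The foxo1 copies did not separate the groups. The gene foxo1a (ENSDARG00000099555, plus strand of chromosome 15, 3284416 to 3379041) had 31 and 45 in mutants 1 and 2, against 62 and 43 in siblings 1 and 2. Mutant 2 and sibling 2 were nearly level, and the extremes were mutant 1 at the low end and sibling 1 at the high end. The means were 38 ± 9.90 in mutants and 52.5 ± 13.4 in siblings (SD, n = 2 each). The log2 difference was −0.46 ± 0.32 (SE), with a 95% interval of −1.18 to 0.27 and a limma adjusted p of 0.819. It was −0.19 without mutant 1 and −0.20 without sibling 1, but −0.72 without mutant 2 and −0.72 without sibling 2.

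The second copy, foxo1b (ENSDARG00000061549, plus strand of chromosome 10, 31809226 to 31861474), had 27 and 33 in mutants 1 and 2, against 30 and 25 in siblings 1 and 2. It was the 1 member of the 4 with a higher mean in the mutants, 30 ± 4.24 against 27.5 ± 3.54 in siblings (SD, n = 2 each), and its groups overlapped. The log2 difference was 0.12 ± 0.32 (SE), with a 95% interval of −0.61 to 0.85 and an adjusted p of 0.963 in limma. This interval leaves room for a change in either direction. Without mutant 2 the difference was −0.02 and without sibling 2 it was −0.01, so its sign rested on single libraries.

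**Figure D1:**
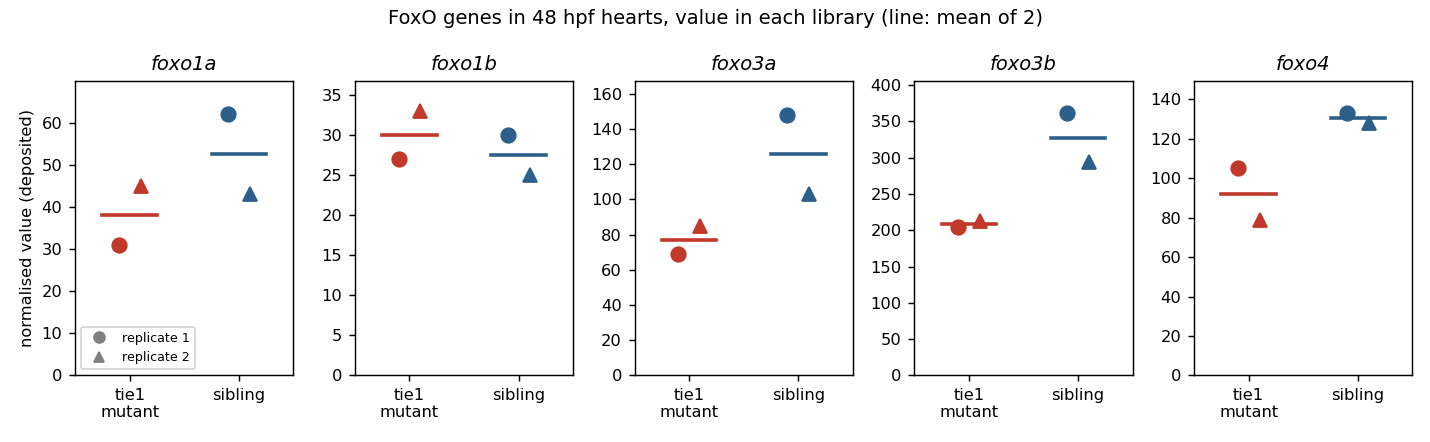
Deposited normalised value of each FoxO gene (vertical axes from 0, a scale for each gene) in the tie1 mutant and sibling libraries, with circles for replicate 1, triangles for replicate 2 and a line at the mean of 2. For foxo3b the mutants sit at 205 and 213 and the siblings at 361 and 294, while the groups overlap for foxo1a and foxo1b.

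Counted over the members, 3 of 4 were lower in the mutants and for 2 of 4, foxo3a and foxo3b, the mutant values lay wholly below the sibling values. Over all genes tested, 6078 of 12118 were lower, while 18.3% showed such a separation downward and 15.7% upward. Among the 1034 tested genes whose mean lay within 1.5 times that of foxo3b the downward share was 24.2%, and among the 2394 such genes around foxo3a it was 21.4%. The median log2 difference of the 4 members was −0.55, beside −0.00 over all genes. Of all genes tested, foxo3a lay at percentile 5.81 and foxo3b at 6.74 of the log2 differences, counted from the lowest, and foxo1a lay at 12.95 and foxo1b at 63.5.

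**Figure D2:**
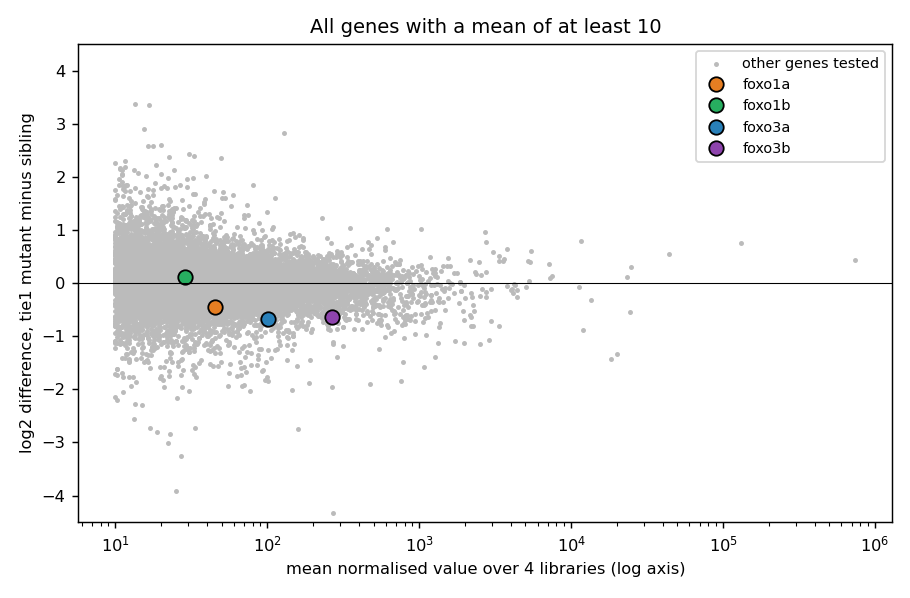
Log2 difference between tie1 mutant and sibling hearts (vertical axis) against the mean normalised value over the 4 libraries (horizontal log axis) for the 12118 genes tested, 1 point a gene, with the FoxO members coloured. The foxo3 copies lie in the lower part of the cloud, at −0.68 and −0.64 (percentiles 5.81 and 6.74 of all genes tested). The gene foxo1b lies at 0.12.

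Read depth differed between the members and between the libraries. An estimated 160 to 484 reads per library stood behind foxo3b and 62 to 198 behind foxo3a, but only 28 to 83 behind foxo1a and 24 to 40 behind foxo1b. The mutant libraries had the fewer reads, for foxo3b 185 and 160 in mutants 1 and 2, against 484 and 337 in siblings 1 and 2. Counting error alone would give the log2 difference an SE of 0.09 for foxo3b and 0.15 for foxo3a, below the fitted 0.21 and 0.26. For foxo1a and foxo1b it would be 0.23 and 0.27, also below the fitted 0.32 of each.

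The remaining FoxO gene of the table, foxo4 (ENSDARG00000055792, plus strand of chromosome 14, 30910114 to 30917928), had 105 and 79 in mutants 1 and 2, against 133 and 128 in siblings 1 and 2. Its mutant values lay wholly below the sibling values, as they did for 18.3% of all genes tested. The log2 difference of foxo4 was −0.51 ± 0.24 (SE), and the limma adjusted p was 0.727. The row si:ch211-126c2.4 overlaps foxo4 on the opposite strand, with 97 and 63 in mutants against 75 and 96 in siblings. The sources used here do not state the strand setting of the counting, so reads of the 2 genes may not be separated. None of the 4 members overlaps another gene of the table. The foxo3 copies have matching neighbours: afg1la lies 3331 bases from foxo3a and afg1lb lies 4786 bases from foxo3b, each on the strand of its foxo3 copy. These neighbours, copies of a mitochondrial ATPase gene, had low values of 13 and 9 (afg1la) and 12 and 11 (afg1lb) in mutants, against 14 and 10 and 10 and 9 in siblings.

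Within a library the paralogs can be set against each other without any scaling between libraries. The foxo3b value exceeded foxo3a by 1.56 and 1.32 log2 units in mutants 1 and 2, against 1.28 and 1.50 in siblings 1 and 2. The shift of this ratio was 0.04, with a two-sided p of 0.667 in an exact permutation test over the 4 libraries. The ratio of foxo1b to foxo1a was −0.19 and −0.44 log2 units in mutants, against −1.02 and −0.76 in siblings. Both mutant libraries thus had the foxo1 copies nearer to each other, by 0.58 log2 units. The exact permutation p of 0.333 is the smallest that 2 against 2 libraries allow, and any full separation of the groups gives it. Only an estimated 24 to 83 reads stood behind each foxo1 value. Counting error alone gives the single differences of foxo1a and foxo1b SEs of 0.23 and 0.27. The shift of their ratio carries the counting error of both genes, so its SE is larger than either. These ratios compare values that depend on transcript length, which is not used here, so they do not say which copy is more abundant per molecule.

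By the Euclidean distance between centred log2 values over the 4 libraries, foxo3a and foxo3b were the closest pair of members, at 0.24 log2 units. The gene foxo1a lay at 0.28 from foxo3a and 0.41 from foxo3b, while foxo1b lay at 0.63 from foxo1a, 0.82 from foxo3a and 0.78 from foxo3b. Over the 5411 genes whose mean was 50 or more, the closest to foxo3b was tln1, the gene of talin, at 0.05. Next came ank1a, an ankyrin gene that is on the erythrocyte marker list used below, at 0.08. The values of tln1 were 609 and 651 in mutants, against 1060 and 894 in siblings. The closest to foxo3a were dcaf11 at 0.14, ccng2, a cyclin G gene, at 0.15, and pdk4, a pyruvate dehydrogenase kinase gene, at 0.15. The values of pdk4 were 71 and 76 in mutants, against 148 and 102 in siblings. For foxo1a the closest were si:ch211-105c13.3, BX539336.1 and chchd3a, at 0.03, 0.09 and 0.11, and for foxo1b ptbp3, kansl3 and gcc1, at 0.04, 0.05 and 0.05. With 4 libraries such nearness is a description only.

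Marker levels of several cell types differed between the groups. Summed over the list, pan-endothelial markers stood at 4336 and 2805 in mutants 1 and 2, against 6545 and 4315 in siblings 1 and 2, and 22 of 24 tested members were lower, although the sum in mutant 1 was just above that in sibling 2. Heart muscle markers summed to 109726 and 69884 in mutants, against 182933 and 110710 in siblings, with 18 of 21 lower. Here the sum in mutant 1 was just below that in sibling 2. Erythrocyte markers summed to 6041 and 5690 in mutants, against 15361 and 13225 in siblings, with 21 of 23 lower. Skeletal muscle markers summed to 936 and 1995 in mutants, against 3012 and 3132 in siblings, with 19 of 20 lower. Endocardial and valve markers summed to 4345 and 3686 in mutants, against 5613 and 4591 in siblings, with 11 of 13 lower. Neural markers, summing to 539 and 290 in mutants, against 342 and 139 in siblings, were higher in 6 of 7 cases, with overlapping sums. White blood cell markers, at 199 and 308 in mutants, against 126 and 188 in siblings, were higher in 5 of 6. Skin markers, at 15828 and 19442 in mutants, against 16047 and 21191 in siblings, overlapped between the groups as well. In pooled tissue, fewer cells of a type and less RNA per cell cannot be told apart.

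Relative to the marker lists, each within its own library, the foxo3 differences were smaller or turned. This scaling was chosen after the values were seen. The lists had median log2 differences of −0.535 (pan-endothelial), −0.32 (heart muscle), −0.28 (endocardial and valve) and −1.26 (erythrocyte). The scaling used list means, which can differ from these medians. In the heart muscle list an actc1a row stood at −3.26, with 2 and 8 in mutants, against 54 and 44 in siblings. It lowers the mean of that list in the mutants more than its median. Because the lists were lower in the mutants, a gene without any change comes out higher on these scales. The share of all genes with such shifts was not computed. Against the mean log2 value of the pan-endothelial markers, foxo3b stood at 1.71 and 2.03 in mutants, against 1.95 and 1.96 in siblings, a shift of −0.09 with overlapping groups. For foxo3a the shift was −0.13 and for foxo1a 0.09, both with overlapping groups. For foxo1b it was 0.67, with −1.17 and −0.62 in mutants, against −1.60 and −1.54 in siblings. Alone, foxo1b differed by only 0.12, with overlapping groups. Against heart muscle markers the shifts were −0.10 for foxo3b, −0.14 for foxo3a, 0.08 for foxo1a and 0.66 for foxo1b. Against endocardial and valve markers, foxo3b stood at −0.06 and 0.35 in mutants, against 0.44 and 0.45 in siblings, a shift of −0.30 without overlap. On that list foxo3a shifted by −0.34 and foxo1a by −0.12, both with overlapping groups, and foxo1b by 0.46 without overlap. Against erythrocyte markers all 4 members were higher in both mutant libraries, by 0.57 for foxo3b, 0.52 for foxo3a, 0.75 for foxo1a and 1.33 for foxo1b. On that scale any gene that fell less than the erythrocyte list comes out higher, so the sign is not particular to FoxO. No shift passed a test, since the exact permutation p cannot go below 0.333. The part of the markers' levels in the FoxO differences was not tested.

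**Figure D3:**
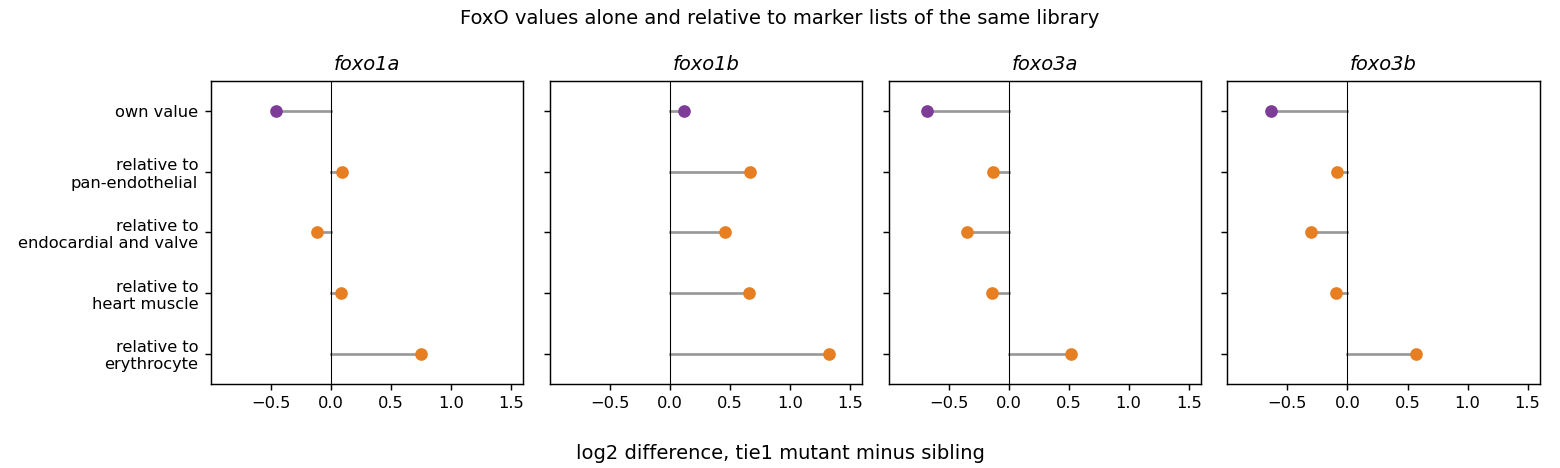
Log2 difference between tie1 mutant and sibling hearts (horizontal axes) for each FoxO member, alone (purple) and relative to the mean log2 value of 4 marker lists in the same library (orange). The foxo3b difference is −0.64 alone, −0.09 relative to pan-endothelial markers and 0.57 relative to erythrocyte markers, whose own median is −1.26.

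Upstream of FoxO, all 7 tested Tie receptor and ligand genes had negative log2 differences, beside 6078 of all 12118 genes. In limma 0 of the 7 passed the adjusted threshold. Their median was −0.44, beside −0.535 for the 24 tested pan-endothelial markers, a list that includes tek. An unadjusted p under 0.05 was found for 3 of the 7 Tie genes, the mutated gene tie1 itself, tek and ptprb, beside 4.34% of all genes on the lower side. The receptor gene tek stood at −0.97 and ptprb, the gene of the phosphatase that acts on Tie2, at −0.92. The ligand genes angpt1, angpt2b and angpt4 stood at −0.29, −0.44 and −0.04, and svep1, the gene of a matrix protein that binds Tie1, at −0.03. The FOXO1 target counterpart angpt2b had 9 and 11 in mutants, against 19 and 10 in siblings, with only an estimated 8 to 25 reads behind each value. In size, foxo3a and foxo3b lay between tek and angpt2b.

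**Figure D4:**
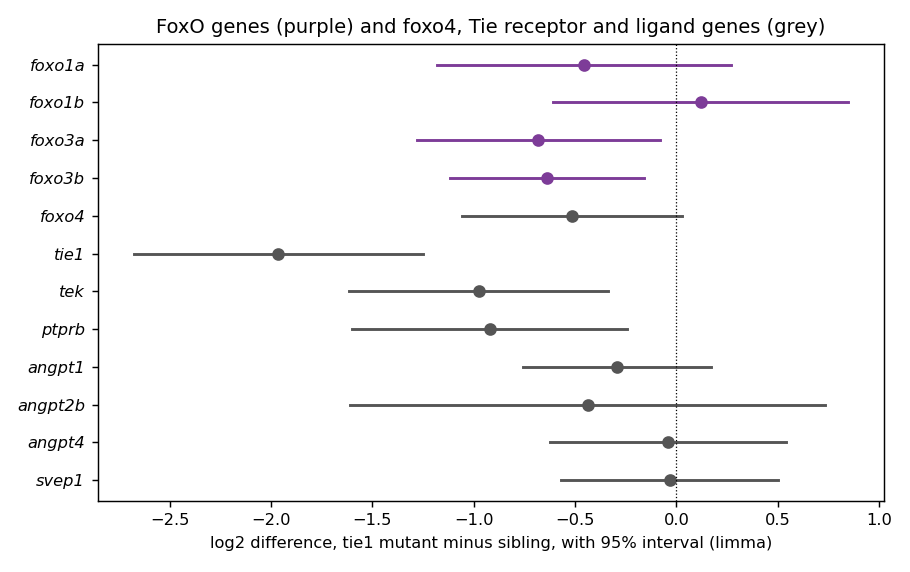
Log2 difference between tie1 mutant and sibling hearts with its 95% interval from limma (horizontal axis) for the FoxO members (purple) and for foxo4 and the Tie receptor and ligand genes (grey). Among the FoxO genes the intervals of foxo3a (−1.28 to −0.08) and foxo3b (−1.12 to −0.16) lie below 0 in this fit, though not without the mean-variance trend, and those of foxo1a, foxo1b and foxo4 include it.

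Between receptors and FoxO lie insulin receptors, PI3K and AKT. Of 33 tested genes of this input, 25 were lower and 8 higher, with a median of −0.16. In limma 0 passed the adjusted threshold, and 1 higher and 2 lower genes had an unadjusted p under 0.05, beside 2.61% and 4.34% of all genes. Mutant values lay wholly below the sibling values for 13, or 39.4%, and wholly above for 3, or 9.09%, beside 18.3% and 15.7% over all genes. The 2 copies of the insulin receptor substrate gene irs2 differed in sign. The copy irs2a had 31 and 28 in mutants, against 58 and 65 in siblings, a log2 difference of −1.03 ± 0.27 (SE). The copy irs2b had 127 and 137 in mutants, against 103 and 112 in siblings, or 0.29 ± 0.22. The other lowest p-values belonged to rictorb, a subunit gene of the kinase complex that activates AKT, at −0.72, and to the insulin receptor gene insra, at −0.48. On the higher side inpp5ka, a phosphoinositide phosphatase gene, stood at 0.95 and the kinase gene sgk2a at 0.41. Values of inpp5ka were low, at 25 and 29 in mutants, against 10 and 18 in siblings. Those of sgk2a were low as well, at 24 and 31 in mutants, against 23 and 18 in siblings. The most abundant, the PI3K regulatory subunit genes pik3r2 and pik3r1, stood at 0.03 and −0.26.

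Of 41 tested partners and modifiers of FoxO, 28 were lower and 12 higher, with a median of −0.09. Wholly below the siblings lay 16, or 39.0%, and wholly above 3, or 7.32%, beside 18.3% and 15.7% over all genes. In limma 0 passed the adjusted threshold, with 0 higher and 3 lower genes at an unadjusted p under 0.05, beside 2.61% and 4.34% of all genes. The acetyltransferase gene kat2b stood at −0.83, prkaa2, the gene of an AMPK catalytic subunit, at −0.63, and ywhah, a 14-3-3 gene, at −0.62. The 14-3-3 proteins bind phosphorylated FoxO and hold it in the cytoplasm, and the most abundant of their genes, ywhaba, had 589 and 572 in mutants, against 564 and 602 in siblings. The most abundant gene of the list, ctnnb1 (beta-catenin), stood at −0.26, and ep300b, another acetyltransferase gene, mapk9 and sirt2 stood at 0.26, 0.51 and 0.25. Values of mapk9 were low, at 15 and 13 in mutants, against 10 and 9 in siblings. For sirt2 the groups overlapped.

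Genes described as FoxO targets, mostly from mammalian cells, went both ways in the mutant hearts, with more of them lower than higher. Over the 3 target lists 70 genes were tested, of which 48 were lower and 22 higher, with a median of −0.18. In limma 0 passed the adjusted threshold, and 3 higher and 10 lower genes had an unadjusted p under 0.05, beside 2.61% and 4.34% of all genes. Mutant values lay wholly below the sibling values for 23 of the 70, or 32.9%, and wholly above for 9, or 12.9%, beside 18.3% and 15.7% over all genes. The downward share varied with level, from 16.2% among genes around foxo1b to 24.2% around foxo3b, and no list around FoxO was matched for level. Some genes stand on 2 of the lists around FoxO, such as irs2a, irs2b and insra.

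In the list of metabolism and insulin feedback, 16 of 22 genes were lower, with a median of −0.17. The gene with the smallest p in it went the other way: igfbp1a, whose mammalian counterpart is a standard readout of FoxO activity in liver, had a log2 difference of 1.71 ± 0.30 (SE), with 94 and 64 in mutants, against 22 and 24 in siblings, and an adjusted p of 0.174 in limma. On the lower side, the stress-response gene sesn1 had 127 and 119 in mutants, against 226 and 190 in siblings, or −0.75 ± 0.22. The pyruvate dehydrogenase kinase gene pdk2b had 12 and 20 in mutants, against 35 and 44 in siblings, or −1.28 ± 0.37. The pseudokinase gene trib1 stood at 0.71, on low values of 12 and 24 in mutants, against 10 and 10 in siblings. The abundant txnipa, the gene of a thioredoxin-binding protein, stood at −0.03.

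In the list of cell cycle and stress, 19 of 28 genes were lower, with a median of −0.23. The growth arrest gene gadd45ab had 38 and 44 in mutants, against 19 and 16 in siblings, or 1.18 ± 0.32 (SE), and its relative gadd45ba had 35 and 44 in mutants, against 16 and 21 in siblings, or 1.06 ± 0.34. By contrast mxi1, the gene of a MYC antagonist, had 138 and 113 in mutants, against 284 and 182 in siblings, or −0.86 ± 0.27, and ccng2 had 51 and 60 in mutants, against 97 and 77 in siblings, or −0.63 ± 0.26. The death ligand gene tnfsf10 stood at 0.66, on low values of 14 and 20 in mutants, against 8 and 13 in siblings. The glutathione peroxidase gene gpx1a stood at −0.73, with 17 and 13 in mutants, against 22 and 29 in siblings. The antiproliferative gene btg1 stood at −0.33 and the selenium transport gene selenop at −0.12.

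In the list of autophagy and protein breakdown, 13 of 20 genes were lower, with a median of −0.20. The mitophagy receptor gene bnip3lb had 51 and 47 in mutants, against 122 and 73 in siblings, or −0.93 ± 0.30 (SE). The ubiquitin ligase gene fbxo32, a FoxO3 target in mouse muscle, had 64 and 63 in mutants, against 132 and 93 in siblings, or −0.79 ± 0.26. The other standard atrophy gene, trim63a, had 325 and 184 in mutants, against 313 and 185 in siblings, or 0.02 ± 0.33, so the 2 libraries numbered 1 were high and those numbered 2 low in both groups. The lysosomal protease genes ctsla and ctsba stood at 0.40 and 0.31, the kinase gene ulk1a at 0.22 and the transcription factor gene tfe3b at −0.72. For ulk1a the groups overlapped.

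Of 16 genes linked to FoxO in endothelium, 9 were lower and 7 higher, with a median of −0.06. Wholly below the siblings lay 3 and wholly above 3, or 18.75% each, near the 18.3% and 15.7% of all genes. In limma 0 passed the adjusted threshold, with 2 higher and 2 lower genes at an unadjusted p under 0.05, beside 2.61% and 4.34% of all genes. The matricellular gene cyr61 had 177 and 117 in mutants, against 81 and 59 in siblings, or 1.05 ± 0.28 (SE). The feedback inhibitor gene spry1 stood at 1.11 and the growth factor gene vegfaa at 0.92. The VEGF receptor genes kdr and kdrl stood at −0.74 and −0.84. The gene of a flow-responsive transcription factor, klf2a, stood at −0.56, and the caveolin gene cav1 at −0.26. For klf2a and cav1 the groups overlapped.

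**Figure D5:**
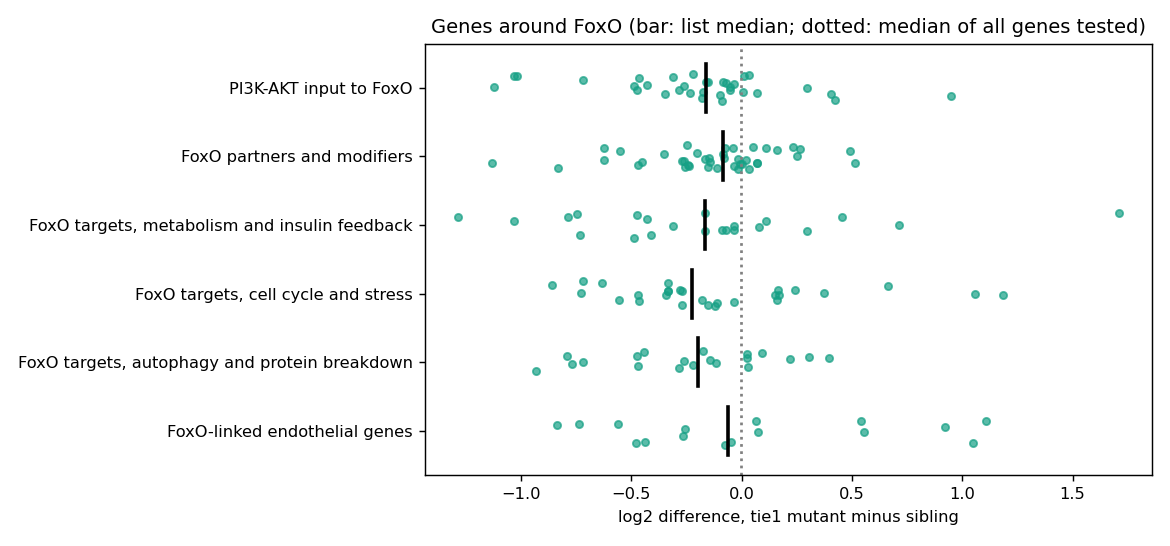
Log2 difference between tie1 mutant and sibling hearts (horizontal axis) for the tested genes of 6 lists around FoxO, 1 point a gene, with a bar at each list's median and a dotted line at the median of all genes tested. List medians run from −0.23 for cell cycle and stress targets to −0.06 for endothelial genes, with genes on both sides of 0 in each list.

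The authors' own annotation placed all 4 members and foxo4 in the KEGG FoxO signaling pathway, which held 145 genes of the table. Of the 127 tested genes of this pathway, 82 were lower and 45 higher, with a median of −0.10. In limma 0 passed the adjusted threshold, and 3 higher and 7 lower genes had an unadjusted p under 0.05, beside 2.61% and 4.34% of all genes. Mutant values lay wholly below the sibling values for 36, or 28.3%, and wholly above for 16, or 12.6%, beside 18.3% and 15.7% over all genes. These counts include the FoxO genes themselves, so they are not independent of the member results. Both foxo3a and foxo3b are among the 7 lower genes, and with foxo4 among the 36 wholly below.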

How the data were processed

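RNA of 4 heart pools was sequenced after on-column DNase digestion, from 2 ng of total RNA with a stranded Pico input kit, per the labels' protocols. Per the submitters' processing notes, STAR 2.4.0a, Subread, featureCounts 1.4.5-p1 and FastQC were used, with build GRCz11 (danRer11). The sources used here state neither the normalization nor the gene filter. The authors deposited whole numbers in a matrix named as normalised, which were treated as a score and not as reads. The spacing of values up to 200 fitted a division by 0.9045, 0.7495, 1.341 and 1.1455 in mutant 1, mutant 2, sibling 1 and sibling 2. Estimated reads are values times these factors. Above 1, rounding merges read numbers, so no test for counts was used.

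Log2(value + 1) was fitted across all 12118 genes with limma 3.58.1 in R 4.3.3, letting the prior variance follow the mean level (the mean-variance trend), and p-values were adjusted by Benjamini-Hochberg. TMM factors, for an alternative, were computed from the deposited values. P-values from limma rest on the spread between pools, which may be technical. In the main fit each gene's own spread is moderated towards that of genes of similar level. The members and lists were chosen with earlier results of these data known. Besides all FoxO and Tie genes, each FoxO list names the 3 genes with the smallest p in each direction and the 2 most abundant, and each member its 3 nearest genes, of which 1 is not reported here.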

Additional observations from a re-analysis of the deposited data

How the results depend on the processing

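No FoxO member passed the adjusted threshold under any alternative run. The log2 differences of foxo3b, foxo3a and foxo1a stayed negative in all of them, from −0.79 to −0.49, −0.94 to −0.42 and −0.72 to −0.19, and these ends came from leaving out single libraries. That of foxo1b ran from −0.02 to 0.26 and turned negative without mutant 2 (−0.02) and without sibling 2 (−0.01). With a mean of at least 50, foxo1a and foxo1b were not tested. The lowest adjusted p of foxo3b was 0.174 and of foxo3a 0.318, both with the replicate number as a block. Their unadjusted p went above 0.05 without the mean-variance trend (0.0531 and 0.0674) and, for each, in 3 of 4 fits that left out a library. Over all genes, 0 passed in the main analysis, 13 with a mean of at least 50, 8 with TMM scaling, 4 with equal totals without mitochondrial genes, 16 with the robust setting and 95 with the replicate block, and 0 without any single library. The cause was not tested. Deviations of same-numbered libraries correlated at 0.198 over genes, and with 2 pairs the numbers are not taken as a pairing. Between 24 and 83 estimated reads a library limit foxo1a and foxo1b.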
